A study of Mus musculus with 2 samples.

Results

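The mitochondrial ribosomal proteins were measured here in kidneys with and without cysts. The members were all probe sets that name 1 gene whose platform symbol is Mrps or Mrpl followed by a number and at most 1 letter. The rule found 156 probe sets of 45101 on the array, which read 76 genes of 18193, 29 of them Mrps genes (small subunit by name) and 47 Mrpl genes (large subunit by name). RNA of whole kidney was labelled with biotin and hybridised to Affymetrix arrays, 1 array for each of 2 groups of mice. The control kidney was +/+ at the inv locus and carried the inv-deltaC::GFP transgene, and the cystic kidney was inv/inv and carried the same transgene, so both carried a gene for truncated inversin. The inv/inv mouse is a model of nephronophthisis type 2, and with the truncated transgene it develops kidney cysts while the left-right placement of its organs is normal. By the series design the mice were 4 weeks old; a female sex and 28 days of age stand in the labels of the cystic array and not in those of the control. The design speaks of 2 kidneys of each kind, and whether these were pooled on an array, the number of animals, the strain and the promoter of the transgene are not given in the sources used here. Control kidney and cystic kidney therefore stand below for the RNA of 1 array each.

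Mitochondria carry their own ribosomes, which translate the few messages of mitochondrial DNA, all of them for subunits of the respiratory chain and ATP synthase. The ribosomal RNAs come from mitochondrial DNA, but every protein of both subunits is encoded in the nucleus, made in the cytoplasm and imported. Some of these proteins have bacterial counterparts and others are found in mitochondrial ribosomes and not in bacteria. The small subunit reads the message, and the large subunit joins the amino acids and holds the tunnel through which the new protein leaves beside the inner membrane. In kidney, mitochondria are most abundant in the proximal tubule and the thick ascending limb, which spend much energy on transport.

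Values are MAS5 signals on a linear scale, and the log2 ratio is cystic minus control. The number of arrays limits the precision: with 1 array for each kind of kidney there were no replicates, and differences could not be tested. The only repeat measurement was technical, between probe sets of a gene on the same arrays, whose log2 ratios had a pooled SD of 0.29 over 4694 genes. The floor under which a signal counted as not measured was each array's median signal, which was 55.4 (control) and 61.9 (cystic). A signal under the floor on 1 array was raised to it, which makes the ratio a bound. Where several probe sets name a gene, the one with the highest signal over both arrays, called its first, gave the gene's value.

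Signals of mitochondrial ribosomal proteins were lower in the cystic kidney for most genes, by a modest amount. All 76 genes were above the floor on both arrays, and 69 of them had a log2 ratio below 0, where 42.1% of the 12014 measured genes did. Their median log2 ratio was -0.36, with quartiles of -0.52 and -0.21, beside a median of 0.09 over all measured genes. At least 1.5-fold lower were 11 members (14.5%), against a background of 10.8%, so the share past this limit was near that of all genes. At least 1.5-fold higher was no member, where 16.4% of all genes were. In the deposited scaling no member differed by 2-fold in either direction, limits that 3.78% of all genes passed as lower and 7.06% as higher. The members ran from -0.95 to 0.28, and the quartiles of all genes were -0.24 and 0.40. When both arrays were centred on their median signals, the median of all genes moved to -0.071, the share of all genes below 0 became 56.3%, and the median of the members became -0.52. By the same centring 30 members (39.5%) were at least 1.5-fold lower, against 15.9% of all genes, so the count past this limit depends on the scaling. Past 2-fold lower were then 4 members (Mrps36, Mrps21, Mrpl55 and Mrpl12), against 5.59% of all genes, and with quantile normalization 1 member (Mrpl55), against 4.39%.

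**Figure D1:**
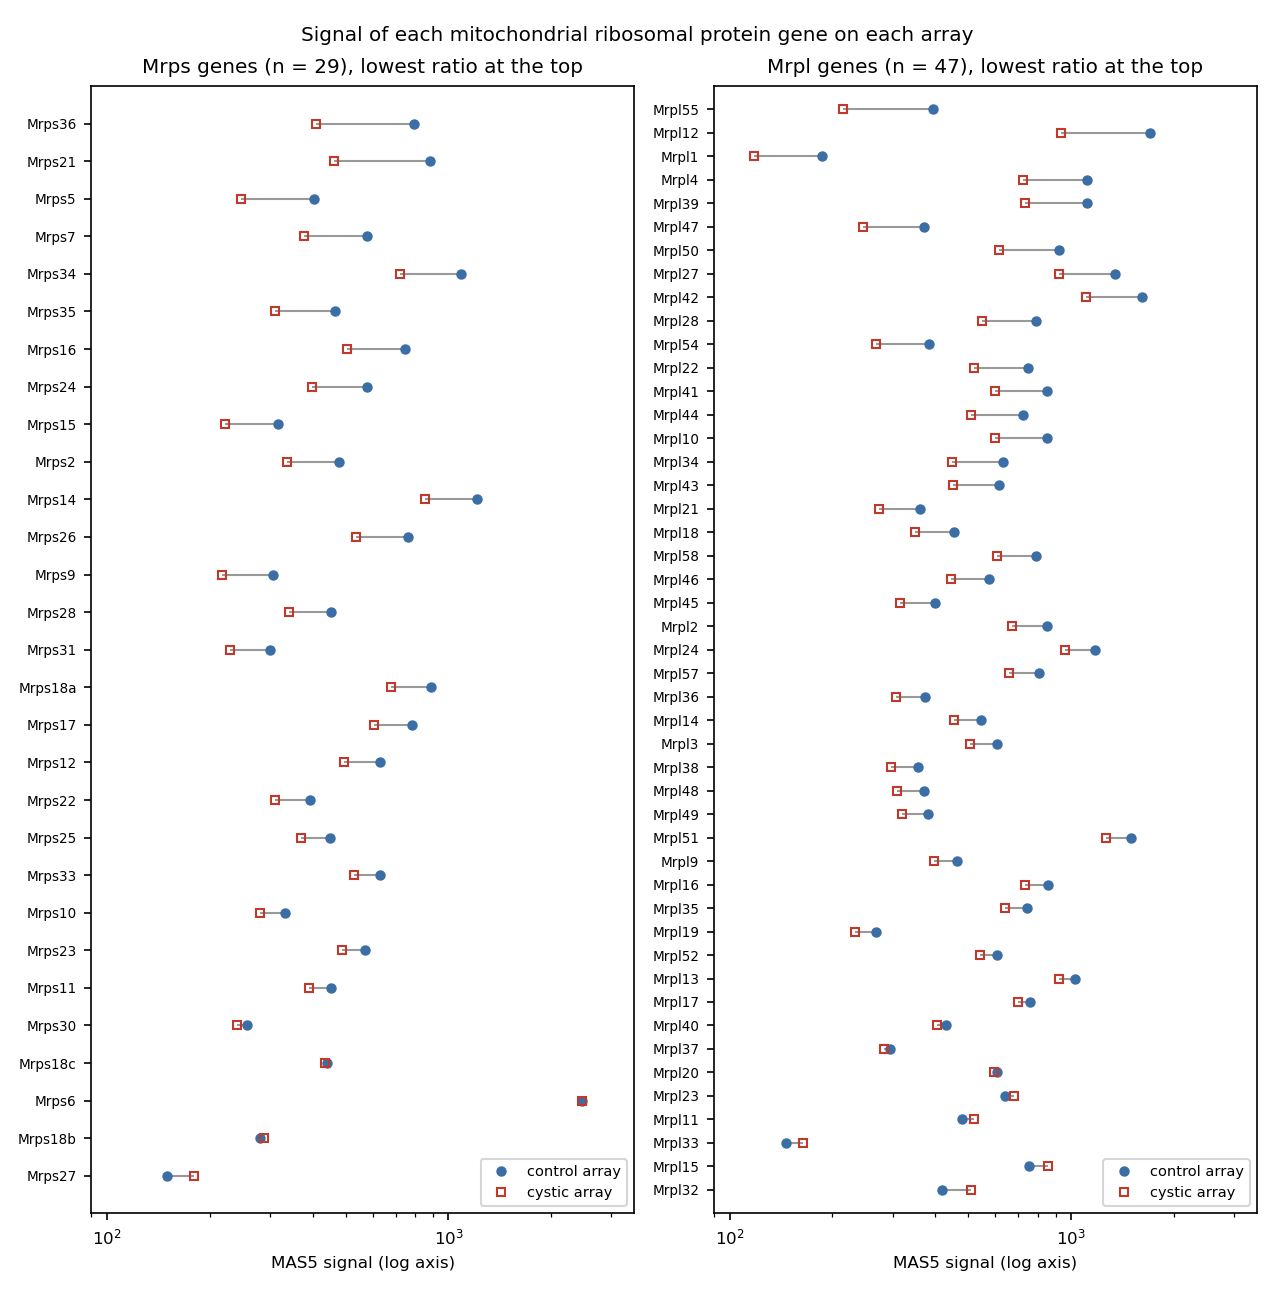
MAS5 signal of each gene on the control array (filled circles) and the cystic array (open squares), on a log axis, with the 29 Mrps genes in one panel and the 47 Mrpl genes in the other, ordered by log2 ratio. In 69 of the 76 genes the square lies to the left of the circle, and the lines at the top are the longest, those of Mrps36, Mrps21, Mrpl55 and Mrpl12.

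The signal level itself was related to the ratio on these arrays, so the members were also set beside genes of the same range. The measured genes were divided by mean signal into 5 bins of equal size. In the bin with the highest signals the median log2 ratio was -0.09 over all 2403 genes and -0.38 over the 25 members in it. In the next lower bin these medians were 0.07 over all genes and -0.35 over 34 members, and in the middle bin they were 0.13 and -0.39, the latter over 14 members. The remaining 3 members, with lower signals, had a median of 0.16, where all genes of their bin had 0.18. Across the 76 members the mean log2 signal and the log2 ratio had a Pearson correlation of -0.14 and a Spearman correlation of -0.13, over points that share the same arrays.

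Of the small subunit, 27 of 29 genes had a log2 ratio below 0, and of the large subunit 42 of 47 did. The median was -0.39 for Mrps genes, with quartiles of -0.53 and -0.25, and -0.30 for Mrpl genes, with quartiles of -0.51 and -0.21. The difference of the medians, small minus large, was -0.10, and the quartile ranges overlapped over nearly their whole length. At least 1.5-fold lower were 5 Mrps genes (17.2%) and 6 Mrpl genes (12.8%), both shares near the 10.8% of all genes. Names do not always match the place in the ribosome: in the structure of the mammalian particle Mrps30 and Mrps18a belong to the large subunit, and Mrps36, now also named Kgd4, belongs to the 2-oxoglutarate dehydrogenase complex of the citrate cycle. With these placed accordingly, the small subunit had 26 genes and a median of -0.40, the large subunit 49 genes and a median of -0.30. At least 1.5-fold lower were then 4 genes (15.4%) of the small and 6 (12.2%) of the large subunit, against 10.8% of all genes. Counted again by name, with Mrps36 the lowest, the 10 lowest members were 5 Mrps and 5 Mrpl genes. The 10 highest were 4 Mrps and 6 Mrpl genes.

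**Figure D2:**
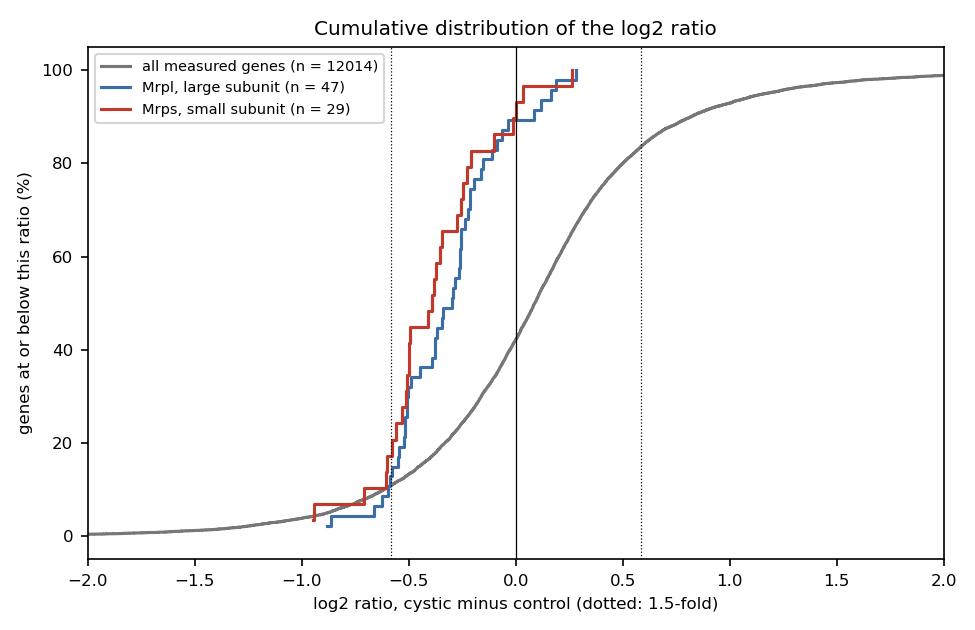
Share of genes (percent) at or below each log2 ratio, for the 29 Mrps genes, the 47 Mrpl genes and the 12014 measured genes. The curves of both subunits run close together to the left of the curve of all genes, have most of their genes below 0, and end before the dotted line for 1.5-fold higher.

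The lowest ratio of all members was that of Mrps36, with signals of 793 (control) and 411 (cystic), a log2 ratio of -0.95. Mrps21, the counterpart of the bacterial small subunit protein S21, followed with 885 and 461, or 52.1% of the control signal. Mrpl55, which takes the place of bacterial L31 in the particle, had 395 and 214, a log2 ratio of -0.88. These were the members closest to a 2-fold difference in the deposited scaling. With median centring all of them passed it, at -1.11 for Mrps36, -1.10 for Mrps21 and -1.04 for Mrpl55. With quantile normalization Mrpl55 alone passed it, at -1.002, and there and with loess its ratio was below that of Mrps36.

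Mrpl12 forms the flexible stalk that receives the translation factors, with 1702 (control) and 935 (cystic), a log2 ratio of -0.86. Beside it, Mrpl10, which anchors the stalk, had 848 and 599 (-0.50), while Mrpl11 of the stalk base had 478 and 519 (0.12). Mrpl11 was read by 3 measured probe sets that disagreed, with log2 ratios from -0.58 to 0.12, so its place above 0 rests on 1 of them.

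Of the small subunit's conserved core, Mrps5 had 404 and 247, a log2 ratio of -0.71 at its first probe set, and its 5 probe sets ranged from -0.71 to -0.13. Mrps7, the counterpart of a bacterial protein of the small subunit's head, had 576 and 379 (-0.60). All 7 genes of the head list (Mrps7, Mrps9, Mrps10, Mrps14, Mrps31, Mrps33 and Mrps35) had log2 ratios below 0, from -0.60 to -0.25, with a median of -0.50. Mrps14 had 1211 and 857 at one probe set (-0.50) and 0.07 at its second.

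Mrps34, a protein of the small subunit without a bacterial counterpart, had 1091 and 719 (-0.60). Mrps35, another of that kind, had 464 and 311 (-0.58), and Mrps22, whose human gene is mutated in a form of mitochondrial disease, had 394 and 310 (-0.35). Their ratios lay within 1 SD between probe sets of each other. Mrps12, the counterpart of the bacterial protein that guards decoding accuracy, had 631 and 494 (-0.36), near the median of all members.

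In the large subunit, Mrpl1, the protein of the mobile L1 arm beside the exit site of the transfer RNA, had 187 and 118 (-0.66), and -0.41 at its second probe set. Mrpl4, a conserved protein that reaches into the tunnel, had 1116 and 724 (-0.63). Mrpl39 and Mrpl50, both without bacterial counterparts, had 1110 and 734 (-0.60), and 919 and 616 (-0.58). Their second probe sets gave -0.42 and -0.62, so for both genes 2 readings were well below 0. Mrpl42, also found in mitochondria and not in bacteria, had 1611 and 1105 (-0.54), and Mrpl51 1495 and 1266 (-0.24).

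Around the mouth of the exit tunnel, 5 of 6 genes had log2 ratios below 0 and the median was -0.32. Mrpl47, the counterpart of bacterial L29, had 371 and 247 (-0.59), and Mrpl45, which holds the ribosome at the inner membrane, had 400.1 and 315 (-0.35). Mrpl23, which stands at the tunnel mouth, was the exception, with 640.0 and 678 (0.08). In the central protuberance, the knob at the top of the large subunit, 9 of 10 genes were below 0 and the median was -0.31. Its exception was Mrpl33, with 146 and 164 (0.16), and its lowest member was Mrpl55.

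The 45 members with a bacterial counterpart had a median log2 ratio of -0.37, and 40 of them were below 0. The 30 members listed as without one had a median of -0.35, and 28 were below 0. That list holds Mrps18a and Mrps18b, although their proteins descend from bacterial S18. At least 1.5-fold lower were 8 genes of the first kind (17.8%) and 2 of the second (6.67%), on either side of the 10.8% of all genes, and Mrps36 stands in neither list.

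The highest ratio was that of Mrpl32, a protein that the inner membrane protease cuts before it enters the ribosome, with signals of 418 (control) and 509 (cystic), a log2 ratio of 0.28. Mrps27, a small subunit protein without a bacterial counterpart, had 150.2 and 179.9 (0.26). Mrpl15 had 0.19 at its first probe set, 750.4 against 856. Each of these lay within 1 SD between probe sets of 0, so the members above 0 could not be told from no difference at this precision. The same holds for the members with ratios from -0.29 (Mrpl57) up to 0. That SD is technical and holds no spread between arrays or animals, so ratios further from 0 were not tested by it either. Of the 7 members above 0, Mrpl32, Mrps27 and Mrpl15 stayed above it under every scaling, while Mrpl11 and Mrpl23 were below 0 with median centring (-0.04 and -0.08), Mrpl33 with quantile normalization (-0.03), and Mrps18b with each scaling tried, down to -0.13. Mrps6, the counterpart of bacterial S6, had 2468 and 2466 and 0.10 as the log2 ratio of its second probe set; scalings put its first between -0.16 and 0.18.

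The genes Mrps18a, Mrps18b and Mrps18c encode related proteins descended from bacterial S18 that take different places in the particle. Mrps18a, placed in the large subunit, had 887 (control) and 679.6 (cystic), a log2 ratio of -0.38. Mrps18b had 281 and 288 (0.03), and Mrps18c, which takes the bacterial position, had 440.5 and 436 (-0.02). So Mrps18a was lower in the cystic kidney by somewhat more than 1 SD between probe sets, near the median of all members (-0.36). Mrps18b and Mrps18c were nearly equal on both arrays. Each was read by 1 probe set, and a difference between these relatives was not tested. Mrps30, placed with Mrps18a in the large subunit, had 257 and 239.8 (-0.10).

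Repeat readings were available for 34 members with at least 2 measured probe sets. Of the 34 genes, 32 were below 0 at the first probe set and 25 at the second. The second probe set had the same sign as the first in 23 of the 34, and in all 23 both were below 0. Some second readings were bounds, as for Mrpl17 and Mrps21. The median of these 34 genes was -0.34 at the first and -0.29 at the second probe set. In 7 genes the probe sets were over 2 SD (0.59) apart: Mrpl11, Mrpl15, Mrpl19, Mrpl21, Mrpl28, Mrpl34 and Mrpl44. Mrpl15 was read by 6 measured probe sets, which ran from -0.61 to 0.22, so its ratio above 0 is uncertain. Mrpl21 had -0.39 and 0.40, and Mrpl19 had -0.20, 0.42 and 0.35 at its 3 probe sets. Mrpl34 had -0.49 at its first, and its second, under the floor in the control, gave a bound of 0.40. Mrpl28 ran from -0.68 to 0.00 and Mrpl44 from -0.69 to -0.07. Of all 156 probe sets of members, 27 were not measured, and of the 129 measured ones 108 were below 0, with a median of -0.30, where 41.1% of all measured probe sets naming 1 gene were below 0.

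**Figure D3:**
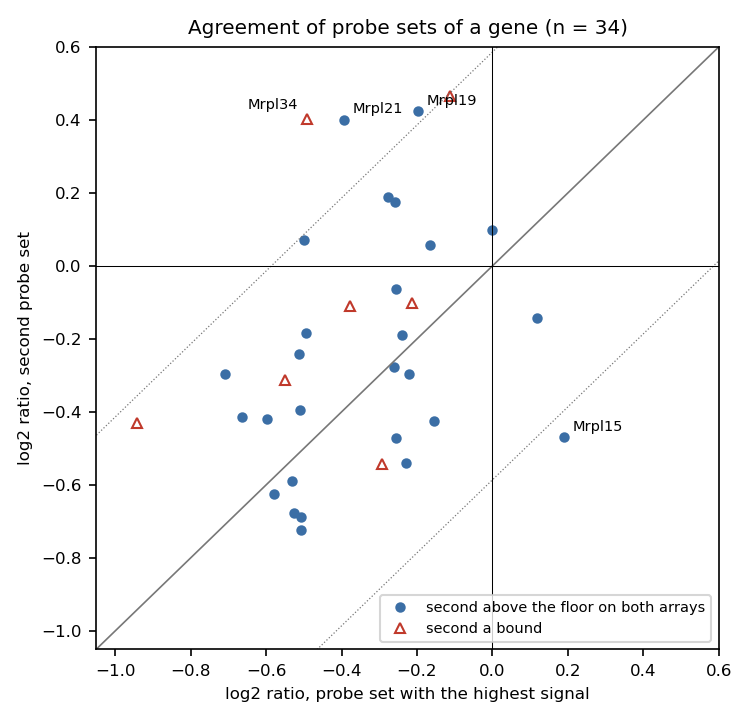
Log2 ratio of a gene's first probe set (horizontal axis, the higher signal) against that of its second (vertical axis) for the 34 members with at least 2 measured probe sets. Circles are second probe sets above the floor on both arrays, triangles are bounds, the solid line marks equality and the dotted lines a difference of 2 SD (0.59). Of these points, 23 have both ratios below 0, and Mrpl15, Mrpl19, Mrpl21 and Mrpl34 lie beyond the dotted lines.

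The lowest and highest members, the Mrps18 genes and Mrps11, whose region before the start it shares with Mrpl46 on the opposite strand, are shown here with the sequence before their start sites, to give the letters behind the motif counts below. Sequences are from RefSeq on GRCm38.p6, 5′ to 3′ on the strand of the gene, from 250 bases before to 30 bases after the annotated start. Capitals mark matches to the ETS core, the NRF1 core and the YY1 motif on either strand.
Mrps36, chr13:100744630-100744909, minus strand: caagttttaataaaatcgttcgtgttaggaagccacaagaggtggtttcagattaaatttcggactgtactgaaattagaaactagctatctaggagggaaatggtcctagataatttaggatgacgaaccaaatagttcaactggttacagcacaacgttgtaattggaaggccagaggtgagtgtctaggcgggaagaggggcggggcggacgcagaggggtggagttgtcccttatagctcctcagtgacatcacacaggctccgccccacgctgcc
Mrpl32, chr13:14613008-14613287, minus strand: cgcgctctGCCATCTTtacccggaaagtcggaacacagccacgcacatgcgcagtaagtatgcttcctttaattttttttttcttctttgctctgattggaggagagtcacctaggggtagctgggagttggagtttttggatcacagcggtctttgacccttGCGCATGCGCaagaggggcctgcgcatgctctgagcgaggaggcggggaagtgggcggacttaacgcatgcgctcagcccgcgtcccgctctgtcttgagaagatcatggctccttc
Mrps18a, chr17:46110754-46111033, plus strand: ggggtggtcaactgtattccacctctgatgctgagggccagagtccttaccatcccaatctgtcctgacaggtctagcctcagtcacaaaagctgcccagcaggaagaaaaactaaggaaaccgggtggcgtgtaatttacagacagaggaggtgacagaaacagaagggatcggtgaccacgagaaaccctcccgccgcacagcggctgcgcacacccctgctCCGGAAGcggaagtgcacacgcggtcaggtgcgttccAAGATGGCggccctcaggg
Mrps18b, chr17:35916411-35916690, minus strand: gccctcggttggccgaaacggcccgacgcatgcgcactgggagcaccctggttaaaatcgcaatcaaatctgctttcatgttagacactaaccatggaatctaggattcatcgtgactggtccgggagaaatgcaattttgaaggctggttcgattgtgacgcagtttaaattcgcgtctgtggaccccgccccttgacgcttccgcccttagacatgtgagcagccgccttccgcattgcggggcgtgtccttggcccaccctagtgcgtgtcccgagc
Mrps18c, chr5:100798509-100798788, plus strand: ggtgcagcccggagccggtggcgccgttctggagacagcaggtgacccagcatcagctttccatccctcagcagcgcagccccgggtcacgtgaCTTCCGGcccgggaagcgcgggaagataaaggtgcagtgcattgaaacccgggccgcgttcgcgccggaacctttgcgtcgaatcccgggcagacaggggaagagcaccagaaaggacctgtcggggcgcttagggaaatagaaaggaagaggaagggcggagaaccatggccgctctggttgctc
Mrps11, chr7:78782881-78783160, plus strand: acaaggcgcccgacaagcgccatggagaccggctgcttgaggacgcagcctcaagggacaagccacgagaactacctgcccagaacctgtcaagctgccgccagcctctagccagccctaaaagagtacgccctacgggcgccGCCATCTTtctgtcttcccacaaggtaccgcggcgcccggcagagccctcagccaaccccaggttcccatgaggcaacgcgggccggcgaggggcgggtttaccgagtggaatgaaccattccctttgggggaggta

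Promoters of nuclear genes for mitochondrial proteins are known for binding sites of the factors NRF1, GABPA (of the ETS family) and YY1. Promoter windows of 300 bases, from 250 before to 50 after the start, were found for 67 of the 76 members, 73 windows in all. The others, Mrpl4, Mrpl13, Mrpl15, Mrpl19, Mrpl38, Mrpl54, Mrps28, Mrps34 and Mrps35, are named only. The ETS core CCGGAAG stood in 25 of the 73 member windows (34.2%), against 8.86% of all 32851 windows and 11.6% of those of protein-coding genes. The longer form CCGGAAGT, which contains that core, stood in 16.4% of member windows, 3.89% of all and 5.15% of protein-coding ones. The NRF1 core, the full form with its middle pair of bases left free, stood in 17.8% of member windows, 6.23% of all and 8.57% of protein-coding ones. The full NRF1 form, the longer run of capitals printed for Mrpl32, stood in 3 member windows (4.11%), 0.971% of all and 1.33% of protein-coding ones. The YY1 motif AAGATGGC stood in 16.4% of member windows, 2.75% of all and 3.05% of protein-coding ones. Both strands were searched, and matches of different motifs were counted whether or not they overlapped. The median GC content was 58.7% in member windows, 56.3% in windows of protein-coding genes and 52.7% in all windows. In the sequences above, Mrpl32 has the full NRF1 form and a YY1 match, Mrps18a has an ETS core and a YY1 match just after its start, and Mrps18c has an ETS core. Mrps18b has its ETS core in the last bases of the window, past the printed stretch, and Mrps36 has no match.

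The members were also divided by the motifs in their windows. The 25 genes with an ETS core had a median log2 ratio of -0.35 and the 42 without it -0.37. The 12 genes with a YY1 match had -0.27 and the 55 without -0.37, and the 13 with an NRF1 core had -0.50 and the 54 without -0.35. The longer ETS form, in 12 genes, went with -0.26 and its absence with -0.37, and the full NRF1 form, in 3 genes, with -0.22 and its absence with -0.36. The NRF1 core and its full form thus lay on opposite sides of the genes without them. An ETS core was found for 11 of 26 Mrps genes and 14 of 41 Mrpl genes, and an NRF1 core for 3 and 10.

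The members were spread over 17 chromosomes, with 11 on chromosome 11 and 8 on chromosome 17. Many of them start back to back with another gene: 23 of the 67 (34.3%) had a protein-coding neighbour on the opposite strand whose start lay within 1000 bases, pointing away, where 8.48% of 17492 protein-coding genes did. Mrps11 and Mrpl46, a small and a large subunit gene, start 42 bases apart, and had log2 ratios of -0.21 and -0.37. Mrpl47 shares its region with Ndufb5, a subunit of respiratory complex I, with -0.59 and -0.78. Mrpl43 shares its region with Twnk, the helicase of mitochondrial DNA, with -0.45 and -0.39. Mrps12 starts beside Sars2, the mitochondrial seryl-tRNA synthetase, with -0.36 and -0.10. Mrpl51 starts beside Ncapd2, a subunit of the chromosome-packing complex condensin, with -0.24 and 1.05. Mrps27 and Ptcd2 also had opposite signs (0.26 and -0.19), as did Mrpl32 and Psma2 (0.28 and -0.23). So did Mrps7 and Gga3 (-0.60 and 0.22) and Mrpl49 and Fau (-0.26 and 0.26), among other pairs. Over the 16 measured neighbours that are not members, 9 were below 0 and the median was -0.07, while the 16 members beside them had a median of -0.30.

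Other parts of mitochondrial gene expression were compared with the members through lists of textbook genes. Of the proteins of the same ribosome that carry other names or were renamed, all 6 measured were below 0, with a median of -0.39. Among them Chchd1 had 1062 and 759 (-0.49), Dap3, the GTP-binding protein of the small subunit, 901 and 686.5 (-0.39), and Gadd45gip1 227 and 154 (-0.56). Mrpl57 and Mrpl58, which stand in both lists, had -0.29 and -0.38. All 13 measured genes of the list of translation factors were below 0 as well, with a median of -0.52. At least 1.5-fold lower were 5 of them (38.5%), against 10.8% of all genes. The list also holds Lrpprc, Slirp and Oxa1l, which have other tasks. Gfm1, an elongation factor that moves the ribosome along the message, had 998 and 532 (-0.91), and Tufm, the factor that brings the transfer RNA, 407 and 260.0 (-0.65). Mtif3, an initiation factor, had 190.3 and 125 (-0.61), and Lrpprc, which stabilises mitochondrial messages, 683 and 452 (-0.60). The highest were Mrrf, the recycling factor (-0.13), and Mtrf1l, a release factor (-0.16).

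Assembly factors of the ribosome divided more evenly, with 14 of 22 measured genes below 0 and a median of -0.09. Grsf1, an RNA-binding protein of mitochondrial RNA granules, had 1804 and 1068 (-0.76), Fastkd2 -0.63, Gtpbp10 -0.58 and Nsun4, a methyltransferase of ribosomal RNA, -0.56. At the other end the helicase Ddx28 had 63.7 and 89.8 (0.50) and the methyltransferase Mrm1 0.23. Of the mitochondrial aminoacyl-tRNA synthetases 13 of 15 measured were below 0, with a median of -0.25. Yars2 had 148 and 72.7 (-1.03), the latter near the cystic floor of 61.9. It was the only gene of this list past 2-fold lower (6.67%, against 3.78% of all genes). Lars2 had -0.88, Fars2 -0.81 and Nars2 -0.71, while Vars2 had 0.29 and Tars2 0.02.

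The list for transcription and maintenance of mitochondrial DNA had a median of -0.34, with 12 of 15 genes below 0. It also holds genes with other tasks, such as Lonp1 and Prorp. The protease Lonp1 had -0.78, Polg2, a subunit of the DNA polymerase, -0.66, the elongation factor Tefm -0.66 and Prorp, which cuts transfer RNAs free, -0.61, while Tfam, which packs and transcribes mitochondrial DNA, had 556 and 402 (-0.47). Mterf1a was under the floor in the control, a bound of 0.94, and Elac2 had 0.23. The regulators of mitochondrial gene expression went both ways, with 6 of 13 below 0 and a median of 0.15. Their median was below 0 with median centring (-0.0078) and with probe sets counted singly (-0.025). It was also below 0 without probe sets whose names end in x_at, s_at or a_at (-0.14). Ppargc1b, a coactivator of mitochondrial genes, had 643 and 254 (-1.34), its partner receptor Esrra 701 and 436.5 (-0.68), Ppara -0.66 and Ppargc1a 739.5 and 529.9 (-0.48). Myc, a growth-promoting transcription factor, had 67.0 and 518 (2.95), and Pprc1, a relative of Ppargc1a, 0.82. Of the factors whose motifs were counted above, Nrf1 had 116 and 174 (0.58) and Yy1 950.4 and 1096.9 (0.21). Gabpa, the ETS factor, had 378 and 290.2 (-0.38), and Gabpb1 of the same list had 108.1 and 154.3 (0.51).

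**Figure D4:**
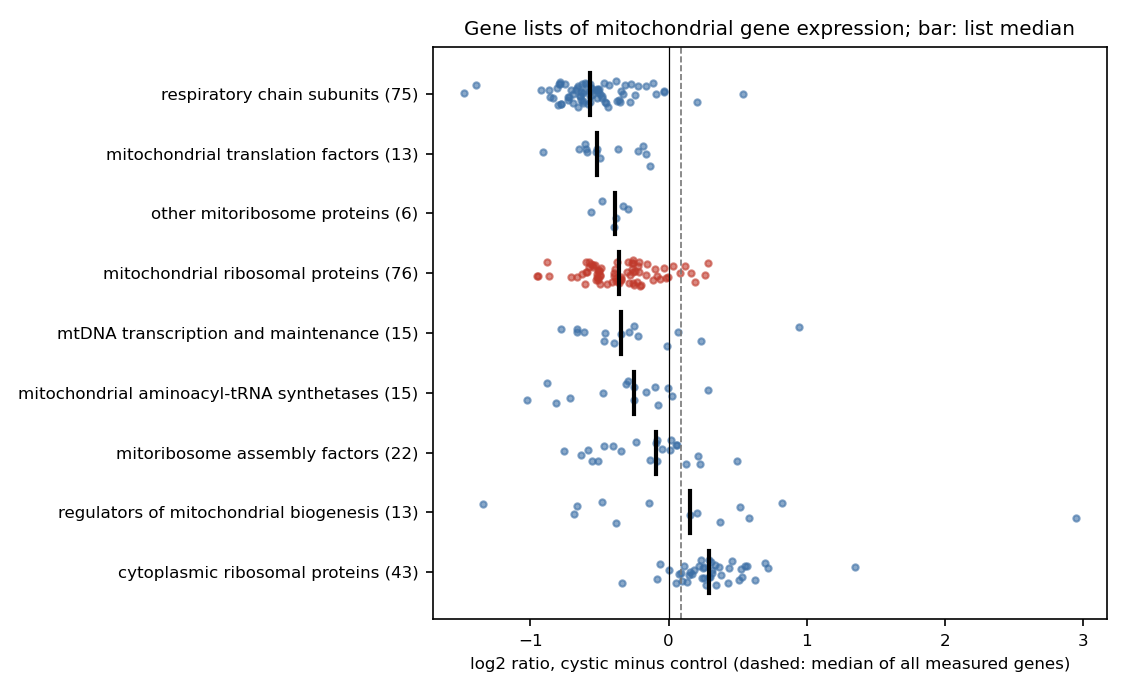
Log2 ratio, cystic minus control, of each measured gene (points) in 9 lists, with the list median as a bar and the number of genes in brackets; vertical scatter has no meaning. The dashed line marks the median of all measured genes (0.09). In the deposited scaling respiratory chain subunits, a list that also holds ATP synthase genes, have the lowest median of these lists (-0.57). The members lie between (-0.36) and cytoplasmic ribosomal proteins lie to the right of 0 (0.29).

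The respiratory chain, which holds the products of these ribosomes, and the ribosomes of the cytoplasm were the most alike gene families. The list of the respiratory chain also holds nuclear genes of ATP synthase. Of its 75 measured genes, all nuclear, 35 (46.7%) were at least 1.5-fold lower, against 10.8% of all genes. Below 0 were 73 of the 75, and their median was -0.57. Among the lists of mitochondrial and ribosomal genes plotted above this median was the lowest in the deposited scaling and with median centring; with quantile normalization and with loess it was -0.43 and -0.42, above those of the translation factors (-0.63 and -0.61) and of the genes for mitochondrial DNA (-0.52 and -0.50). Of 43 measured genes of cytoplasmic ribosomal proteins, 3 were below 0 and the median was 0.29, so the ribosomes of mitochondria and cytoplasm lay on opposite sides of 0, as they did under each alternative tried, with medians from -0.52 to -0.29 and from 0.13 to 0.44. These shares can be set beside 90.8% below 0 for the members and 42.1% for all measured genes. Of the messages of mitochondrial DNA, ND5, a subunit of complex I that these ribosomes make, was read by 1 probe set named here, with 9512 (control) and 9224 (cystic), a log2 ratio of -0.04; it was chosen after its value was seen.

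The cells that make up the kidneys differed as well, and in whole tissue fewer cells of a type and less RNA per cell cannot be told apart. All 8 proximal tubule markers were lower in the cystic kidney, with a median of -0.99 and a range from -2.06 to -0.52, and their signals lay between 1713 and 8397 (control) and between 409.6 and 5630.2 (cystic). Umod, Slc12a1 and Slc12a3, of the thick limb and distal tubule, had -0.09, -0.32 and -0.94, and the principal cell marker Aqp2 had 0.29, so nephron markers were present on both arrays. The podocyte marker Nphs1 had 204 and 97.1 (-1.07). All 7 macrophage and all 6 fibroblast markers were higher, with medians of 2.16 and 2.23, and all 5 measured proliferation markers were above 0, with a median of 0.54. The part of these shifts in the lower signals of mitochondrial ribosomal proteins was not tested. RNA quality gave close values, with a ratio of 3′ to 5′ signal of 1.23 and 1.17 for Actb and of 0.779 and 0.780 for Gapdh, control and cystic.

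**Figure D5:**
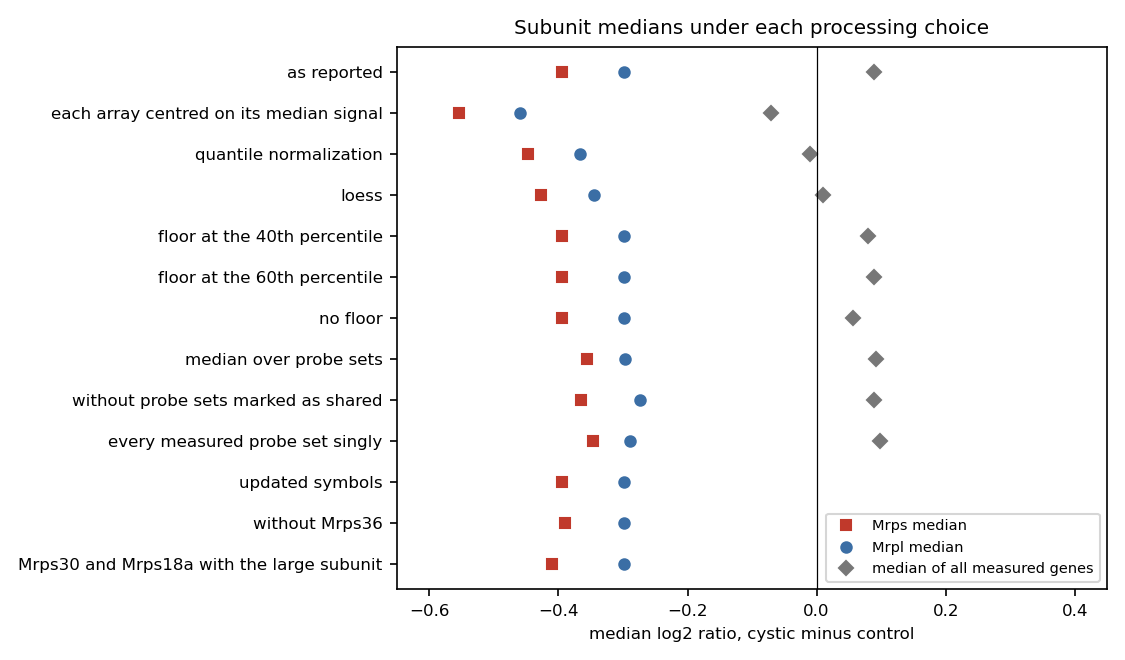
Median log2 ratio of the Mrps genes (squares), the Mrpl genes (circles) and all measured genes (diamonds) as reported and under each alternative; alternatives that only change the members have no diamond. Both subunit medians stay below 0 in each of the 12 alternatives, between -0.55 and -0.27, with the Mrps median to the left, while the median of all genes crosses 0 with median centring and quantile normalization.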

How the data were processed

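Deposited by the authors was 1 column of linear MAS5 signal intensity per array; MAS5 is named per the submitters' processing notes, and its version, scaling target and detection calls are not given in the sources used here. Of 45101 probe sets, 64 controls were left out. The authors' scaling was kept, since the 2% trimmed means (178 and 181) differed by 1.83%, under a limit of 2%. Gene names came from the platform annotation (34945 probe sets with 1 gene, 932 with several, 9160 with none named here). Members were chosen by platform symbol; probe sets were grouped into genes by the gene identifier's symbol in a RefSeq table of GRCm38.p6. The 4 probe sets that name a member with another gene (Mrpl30, Mrps34, Mrpl53) were left out. The median of each array over the remaining probe sets was the floor. Ratios, counts, medians and motif matches were computed in Python 3.11.15 with pandas 2.3.3, and loess with statsmodels 0.14.6, tested on simulated data. Named genes followed a fixed rule: the 12 lowest and 8 highest members, the 3 of each subunit with the highest signal, Mrps18a, Mrps18b, Mrps18c, Mrps30, Mrps36, members with disagreeing probe sets, and up to 4 lowest and 2 highest genes of each list. Other genes named, and the search for back-to-back starts, were chosen after values were seen. The members and lists were chosen with earlier results of these data known. Alternatives are given in the closing section.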

Additional observations from a re-analysis of the deposited data

How the results depend on the processing

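The median log2 ratio of the members stayed below 0 under all 11 alternatives run for it, between -0.52 and -0.29, and the small subunit's median stayed below that of the large one, with differences from -0.11 to -0.06. Median centring moved most values, by construction, since it shifts every ratio down: the members to -0.52, Mrps to -0.55, Mrpl to -0.46, all genes to -0.071, other proteins of the ribosome to -0.55, translation factors to -0.68, assembly factors to -0.25, aminoacyl-tRNA synthetases to -0.41, genes of mitochondrial DNA to -0.50, regulators to -0.0078, the respiratory chain to -0.73 and cytoplasmic ribosomal proteins to 0.13; members at least 1.5-fold lower were then 30 in place of 11, and 4 passed 2-fold in place of 0. With quantile normalization 1 member passed 2-fold, all genes had -0.0099, translation factors -0.63, assembly factors -0.24, synthetases -0.36, genes of mitochondrial DNA -0.52, the respiratory chain -0.43 and cytoplasmic ribosomal proteins 0.40; with loess the last 5 had -0.22, -0.38, -0.50, -0.42 and 0.44. Without probe sets whose names end in x_at, s_at or a_at, 62 members were measured and the regulators had -0.14. Of these 62 members 50 were below 0 and 7 at least 1.5-fold lower. The regulators had 0.040 with the median over probe sets and -0.025 with probe sets counted singly; apart from centring, the cause of these moves was not tested. Without a floor, 3244 genes were at least 1.5-fold lower and 3819 higher, in place of 1297 and 1970, and 1691 and 2105 passed 2-fold, in place of 454 and 848. Of 257 values of single named members under the alternatives, 249 moved by less than the SD between probe sets and 8 by more, all of them where other probe sets were read. Choosing members by updated symbols gave the same count and medians of members. No paired analysis was possible because each group has 1 array.

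With 1 array for each kind of kidney, differences between animals cannot be told from those between genotypes, and ratios under about 0.29 are within the spread of probe sets. MAS5 reads mismatch probes, and the deposited scaling fixes where 0 lies; relative to all genes the members were lower under each scaling tried.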
